A study of Mus musculus with 12 samples.

Results

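Egr1, Egr2, Egr4 and Nr4a1 are immediate early genes that encode transcription factors, and they were taken by name from the deposited table of differentially expressed genes (DEGs), which holds 584 genes. All 4 genes were found, so they are 4 of the 584. The table had been selected by the authors for a difference between both housing groups, so the presence of these genes in it was not a new result, and p-values computed within it are not independent of that selection. Egr1, Egr2 and Egr4 are C2H2 zinc finger proteins of the early growth response family, and Nr4a1 (also called Nur77) is an orphan nuclear receptor. In neurons, synaptic activity raises calcium and activates MAP kinase signalling, and transcription factors that are already present, such as SRF with its ternary complex partners and CREB, then switch on the immediate early genes within minutes without new protein synthesis. The RNAs are short lived, so their level in a dissected hippocampus follows the recent activity of its neurons. Egr1 is widely used as a marker of activated neurons and is needed for lasting forms of plasticity and memory, Egr2 is also a master regulator of myelination in Schwann cells, Egr4 is a family member enriched in neurons, and Nr4a1 has been linked to synaptic plasticity and to energy metabolism.

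The study asked how an enriched environment changes the hippocampal transcriptome. Male C57BL/6 mice were weaned at 3 weeks of age. They were kept for 5 weeks either in standard cages (SH) or in cages with toys, tunnels and hideouts (EE). The EE cages also held more animals each than the standard cages, and the cage behind each library was not given. Hippocampal total RNA was sequenced at 8 weeks, with 3 libraries for each group. Both groups were of the same strain, with no drug or transgene named for either. The 6 m6A immunoprecipitation libraries of the series were not analysed here. The whole hippocampus was used, so fewer cells of a type and less RNA per cell cannot be told apart. The time of day, the interval since the last handling and the interval from the cage to the dissection were not given in the sources used here.

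The reads behind the FPKM values ranged from 31969156 to 40319498 a library in SH and from 37507694 to 53943195 in EE, and the genes of the table held 8.12% to 8.85% of them. SH replicate 1 was the shallowest library and EE replicate 3 the deepest. Of the 584 genes, 246 were higher and 338 lower in EE. The 10 marker genes of hippocampal neurons looked for had 2 in the table (Neurod6 and C1ql2), and the others were not analysed here, so the tissue label could be checked only in part. The 9 astrocyte markers had 5 in the table, all with a lower mean in EE and 3 of them called (1 under TMM, 0 under DESeq2's size factors and 5 with the column sums of the table as library sizes), where 40.6% of all table genes were called lower (9.08%, 4.97% and 54.6% under these scalings) and 70.1% of those with a log2 fold change below 0. They had a summed FPKM of 201.3 to 210.8 in SH and 176.3 to 185.3 in EE. Their part in the results below was not tested.

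Egr2 lies on chromosome 10 of GRCm38 (67534469 to 67542188, plus strand), Egr4 on chromosome 6 (85511121 to 85513589, minus strand) and Nr4a1 on chromosome 15 (101253902 to 101274795, plus strand). The 5′ part of Egr2 overlaps Gm32255 on the minus strand (67496359 to 67536180) by 1712 bases, and the counting was not stated to use strand, so reads of both genes could not be told apart there. The promoters of Egr2, Egr4 and Nr4a1 are printed because the rise of immediate early genes is known to start at short elements close to the start site, bound by SRF (the CArG box) and by CREB (the CRE). Each window runs from 250 bases before to 50 bases after the start site, and the sequences are those of RefSeq for GRCm38.p6, read 5′ to 3′ along the gene. Capitals mark a CArG box, the CRE core TGACG (or its reverse complement) and the EGR binding site GCGNGGGCG.
Egr2, chr10:67537619-67537918, plus strand: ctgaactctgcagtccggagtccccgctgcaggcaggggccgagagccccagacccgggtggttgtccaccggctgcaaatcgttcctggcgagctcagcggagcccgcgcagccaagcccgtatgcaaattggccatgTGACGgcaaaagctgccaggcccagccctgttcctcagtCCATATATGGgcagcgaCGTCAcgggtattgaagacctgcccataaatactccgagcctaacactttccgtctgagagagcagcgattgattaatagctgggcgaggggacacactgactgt
Egr4, chr6:85513540-85513839, minus strand: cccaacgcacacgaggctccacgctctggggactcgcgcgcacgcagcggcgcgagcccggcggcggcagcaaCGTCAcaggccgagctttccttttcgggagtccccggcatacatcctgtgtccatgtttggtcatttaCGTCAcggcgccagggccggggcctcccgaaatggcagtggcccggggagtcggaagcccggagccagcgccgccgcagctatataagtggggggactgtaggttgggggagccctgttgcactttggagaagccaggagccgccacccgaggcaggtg
Nr4a1, chr15:101266596-101266895, plus strand: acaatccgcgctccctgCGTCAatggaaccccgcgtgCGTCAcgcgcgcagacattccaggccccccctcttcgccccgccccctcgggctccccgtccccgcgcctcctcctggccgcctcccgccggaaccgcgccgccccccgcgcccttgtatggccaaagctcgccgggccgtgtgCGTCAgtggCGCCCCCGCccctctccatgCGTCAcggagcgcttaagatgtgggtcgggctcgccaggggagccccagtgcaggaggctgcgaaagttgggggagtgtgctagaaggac
Both strands were searched, a match that reads the same on both strands was counted once, and positions are counted from the start site as 0. The Egr2 window holds a CArG box at -72 to -63, with CRE cores at -111 to -107 and -55 to -51 on either side of it. RefSeq gives Egr2 5 start windows, and 4 of them hold a CArG box. The Egr4 window holds CRE cores at -177 to -173 and -109 to -105. The Nr4a1 window holds 4 CRE cores, the nearest at -40 to -36, and an EGR site at -60 to -52. Among all 32851 promoter windows of the table of promoters, 1.63% hold a CArG box, 20.8% a CRE core and 5.55% an EGR site. Among the 586 windows of 440 genes of the DEG table, the shares are 2.39%, 30.4% and 10.9%. The NBRE, the element AAAGGTCA that NR4A proteins bind as monomers, is in 1.51% of all windows and was not found in these 3. A match is a run of letters and not a shown binding site.

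Egr1 lies on chromosome 18 of GRCm38 (34861207 to 34864956, plus strand), so the 4 genes are on different chromosomes. Per length of transcript, they kept the same order of level in every library, with Egr1 highest, then Nr4a1, Egr4 and Egr2. Egr1 was between 33.2 and 55.7 FPKM, Nr4a1 between 5.93 and 10.01 FPKM, Egr4 between 3.42 and 5.09 FPKM and Egr2 between 0.208 and 0.847 FPKM, so no neighbours in this order overlapped. The FPKM of Egr2 rests on a length of 9365 bases, while the exons of Egr2 in RefSeq cover 3808 bases together and its longest transcript has 2989. With 3808 bases, Egr2 was between 0.510 and 2.08 FPKM and still below Egr4 in every library. The lengths behind the FPKM of Nr4a1 (5069 bases, against 4079 in RefSeq) and Egr4 (2100 against 2148) moved their levels less, and that of Egr1 was 3072 bases in both. Length cancels out in every comparison between libraries.

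Egr1 had an FPKM of 50.5, 33.2 and 34.1 in SH replicates 1, 2 and 3, and 51.4, 55.7 and 46.9 in EE replicates 1, 2 and 3. SH was split, since SH replicate 1 lay among the EE libraries and above EE replicate 3, while SH replicates 2 and 3 lay below every EE library. The counts behind these values ran from 3937 to 7770 reads, and the exact Poisson 95% interval of SH replicate 1 (49.1 to 51.9 FPKM) did not reach that of SH replicate 3 (33.1 to 35.2 FPKM). Counting error alone, which is all that such intervals cover, was therefore smaller than the gap. The means were 39.3 ± 9.71 for SH and 51.3 ± 4.40 for EE (SD, n = 3 each).

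Nr4a1 had an FPKM that measured 9.37, 5.97 and 5.93 in SH replicates 1, 2 and 3, against 9.98, 10.01 and 8.51 in EE replicates 1, 2 and 3. The same library stood apart as in Egr1, because SH replicate 1 was above EE replicate 3 and the other SH libraries were below all EE libraries. The means were 7.09 ± 1.97 for SH and 9.501 ± 0.861 for EE (SD, n = 3 each), from 1168 to 2326 reads.

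Egr2, the member with the lowest level, measured 0.578, 0.208 and 0.220 FPKM in SH replicates 1, 2 and 3, against 0.683, 0.847 and 0.408 FPKM in EE replicates 1, 2 and 3. SH replicate 1 was again the highest of its group and above EE replicate 3, and EE replicate 3 was the lowest of EE. The means were 0.335 ± 0.210 for SH and 0.646 ± 0.222 for EE (SD, n = 3 each). With 75 to 336 reads, Egr2 had the widest counting intervals of the 4 genes relative to its level, and the interval of SH replicate 1 (0.495 to 0.671 FPKM) still lay above that of EE replicate 3 (0.354 to 0.467 FPKM).

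Egr4 measured 3.78, 4.01 and 3.42 FPKM in SH replicates 1, 2 and 3, against 4.63, 4.62 and 5.09 FPKM in EE replicates 1, 2 and 3. Every EE library lay above every SH library, and SH replicate 1 was the middle value of its group. The means were 3.74 ± 0.295 for SH and 4.78 ± 0.269 for EE (SD, n = 3 each), from 254 to 577 reads.

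**Figure D1:**
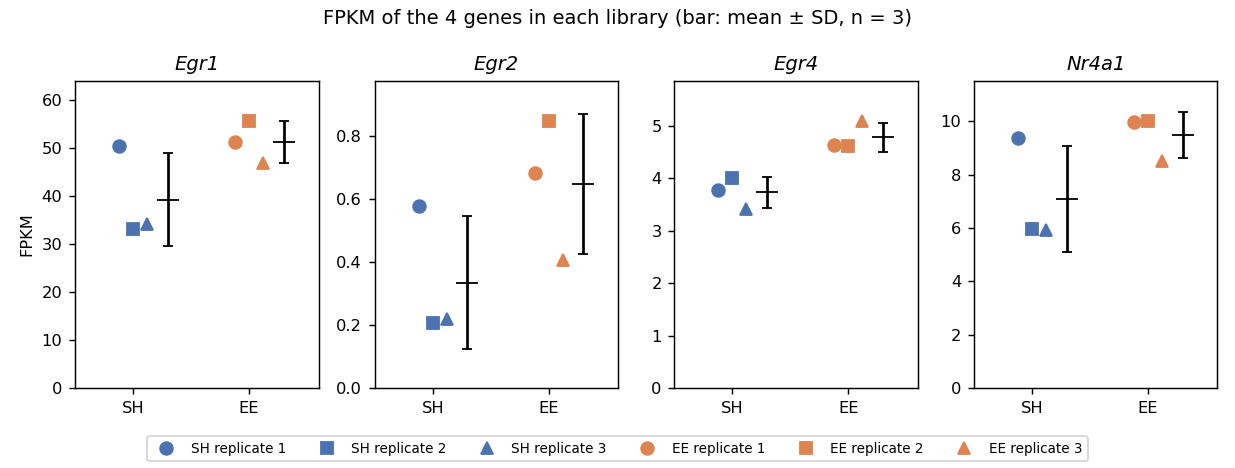
FPKM of Egr1, Egr2, Egr4 and Nr4a1 in the 3 SH and 3 EE libraries, with a marker shape for each replicate number and the mean ± SD (n = 3) beside them; each panel has its own axis starting at 0. SH replicate 1 lies above EE replicate 3 in Egr1, Egr2 and Nr4a1, and the groups are separate in Egr4.

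All 4 genes had a higher mean in EE, and Egr4 alone passed edgeR's quasi-likelihood test. On the counts of all 584 genes, Egr4 rose by a log2 fold change of 0.36 (SE 0.10, unadjusted p = 0.00367, adjusted p = 0.0158 from edgeR with Benjamini-Hochberg adjustment), 1.28-fold between the mean FPKM values. A gene was called at an unadjusted p under 0.01, the p threshold named in the study's methods, which also name a fold change threshold. All 4 genes are DEGs of the authors' own edgeR comparison, so a gene not called in this fit did not miss the authors' criterion. Egr1 had a log2 fold change of 0.39 (SE 0.14, unadjusted p = 0.0183 from edgeR), a ratio of means of 1.31. Nr4a1 had a log2 fold change of 0.43 (SE 0.16, unadjusted p = 0.0214 from edgeR), a ratio of means of 1.34. Egr2 had the largest log2 fold change of the 4, 0.97 (SE 0.38, unadjusted p = 0.0274 from edgeR), a ratio of means of 1.93. Thus 1 of the 4 genes was called, where 19.2% of all table genes were called as higher in EE and 45.5% of those with a log2 fold change above 0. Likewise 1 of the 4 had no overlap between groups, where 37.2% of all table genes had every EE library above every SH library and 88.2% of those with a log2 fold change above 0. Under a Benjamini-Hochberg adjusted p of 0.05 all 4 passed, which says little here, since 99.8% of the table did. In the exact permutation test of log2(FPKM + 0.1), two-sided, Egr4 gave p = 0.1, the smallest that 3 libraries against 3 allow, and Egr1, Egr2 and Nr4a1 each gave an exact p of 0.2.

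Among the 246 genes higher in EE, ordered by log2 fold change, Egr2 ranked 6, Nr4a1 33, Egr1 43 and Egr4 46. The median log2 fold change of these 246 genes was 0.21, so each of the 4 genes lay above it. The log2 ratio of Egr1 to Egr2 counts differed between groups by -0.64 (exact permutation p = 0.2, adjusted p = 0.6 over 6 pairs). With a smallest possible p of 0.1, this test could not show whether the log2 fold changes of Egr1 and Egr2 differ. With a pseudocount of 1, which weighs on a gene of this level, limma on log2(FPKM + 1) gave 0.30 for Egr2, below Egr1 and Nr4a1 (0.40 each), so the place of Egr2 rests on the scale. In all, 112 genes of the table were called higher and 237 lower. This split depends on the scaling, and edgeR's TMM factors gave 229 higher and 53 lower. DESeq2's size factors shifted all genes by 0.109 on the log2 scale (median), members included.

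The spread between libraries was largest for Egr2 and smallest for Egr4 of the 4 genes, and each of them varied more than the median gene of the table. The coefficient of variation over the SH libraries was 62.8% for Egr2, 27.8% for Nr4a1, 24.7% for Egr1 and 7.90% for Egr4, against a median of 5.18% over the table. Within EE it was 34.4% for Egr2, 9.06% for Nr4a1, 8.58% for Egr1 and 5.63% for Egr4, against a median of 5.01%. The biological coefficient of variation fitted by edgeR was 31.4% for Egr2, rank 3 of the table from the highest, 13.5% for Nr4a1 (rank 28), 11.9% for Egr1 (rank 41) and 7.38% for Egr4 (rank 144), where the median was 5.96%. The squared deviations within SH were 256.2 times those of counting error in Egr1, 97.2 times in Nr4a1, 44.3 times in Egr2 and 1.94 times in Egr4. Within EE, the same ratio was 55.8 in Egr1, 35.7 in Egr2, 19.3 in Nr4a1 and 1.53 in Egr4. This ratio grows with the number of reads, which averaged 5677 for Egr1 and 370.3 for Egr4, so it does not rank the genes by their spread.

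In this test, the call turned on SH replicate 1 for 3 of the 4 genes. Against the mean of SH replicates 2 and 3, this library held 2.70 times the FPKM of Egr2, 1.57 times that of Nr4a1, 1.499 times that of Egr1 and 1.02 times that of Egr4. Over the 584 genes the median of this ratio was 0.991 and the 5th to 95th percentile 0.861 to 1.22, and Egr2 ranked 1, Nr4a1 7, Egr1 10 and Egr4 205. EE replicate 3 went the other way, with 0.533 times the FPKM of Egr2, 0.851 times that of Nr4a1 and 0.876 times that of Egr1 in the mean of EE replicates 1 and 2, but 1.10 times that of Egr4. Without SH replicate 1, edgeR gave a log2 fold change of 0.61 for Egr1 (unadjusted p = 1.23e-06), 1.58 for Egr2 (unadjusted p = 4.80e-05) and 0.67 for Nr4a1 (unadjusted p = 3.54e-06), and all 4 genes were called, where 13.5% of all table genes were called higher in the same fit. With any other library left out, Egr1, Egr2 and Nr4a1 were not called, and 8.9% to 16.8% of all table genes were called higher. Egr4 stayed near its value, at 0.30 to 0.41, but it was not called without SH replicate 3 (unadjusted p = 0.0164 in edgeR), EE replicate 1 (unadjusted p = 0.0107) or EE replicate 3 (unadjusted p = 0.0197), nor with the column sums as library sizes (unadjusted p = 0.0166). A library left out of a group of 3 leaves 2, so these fits show what single libraries decide and do not replace the fit over all 6.

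**Figure D2:**
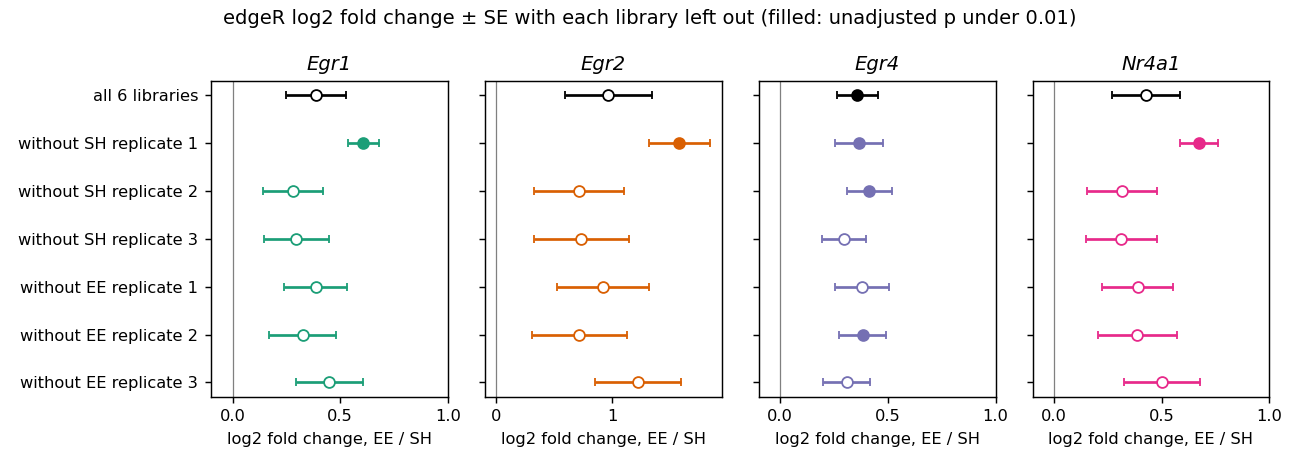
Log2 fold change of EE against SH from edgeR with its SE, over all 6 libraries (black) and after the removal of a library (colour), where filled points have an unadjusted p under 0.01; the axis of Egr2 is wider than the others. Leaving out SH replicate 1 moves Egr1 to 0.61, Egr2 to 1.58 and Nr4a1 to 0.67 and leaves Egr4 near 0.37.

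Some other RNAs were also high in SH replicate 1. Of the 29 genes that were higher in EE and overlapped between groups, 16 overlapped through SH replicate 3 alone, 4 through SH replicate 2 alone and 8 through SH replicate 1 alone, so overlap through SH replicate 1 was not the most frequent kind. The 8 were Egr1, Egr2, Nr4a1, Nr4a3, Tiparp, Fgf12 and the mitochondrial genes COX2 and COX3. COX2 held 2.02 times and COX3 1.42 times the FPKM of the other SH libraries there, and ATP6 held 1.87 times. Fgf12 (1.09 times) and Nr4a3 (1.14 times) lay within the 5th to 95th percentile of the table. The 5 mitochondrial genes of the table took 2.73% of the reads of SH replicate 1, against 2.30% and 2.48% in SH replicates 2 and 3 and 2.77% to 3.36% in EE. The part of mitochondrial RNA and of depth in the values of Egr1, Egr2 and Nr4a1 was not tested.

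Egr1, Egr2 and Nr4a1 varied together over the 6 libraries, and for Egr4 no such relation passed a test. On log2(FPKM + 0.1), Egr1 and Nr4a1 had a Pearson r of 0.99 (exact permutation p = 0.00556, adjusted p = 0.0111 over 6 pairs) and a Spearman rho of 0.94 (exact p = 0.0167, adjusted p = 0.0333). Egr1 and Egr2 had a Pearson r of 0.98 (exact permutation p = 0.00278, adjusted p = 0.0111), and their libraries had the same order, a Spearman rho of 1 (exact p = 0.00278, adjusted p = 0.0167). Egr2 and Nr4a1 had a Pearson r of 0.97 (exact permutation p = 0.00556, adjusted p = 0.0111) and a Spearman rho of 0.94 (exact p = 0.0167, adjusted p = 0.0333). The difference between SH and EE adds to such values, so the deviations from the group means were also compared, and r was then 0.98 for Egr1 and Nr4a1, 0.96 for Egr1 and Egr2 and 0.95 for Egr2 and Nr4a1. Without the pair of libraries farthest from the median of the first gene, r was 0.89, 0.98 and 0.96 in the same order. Without SH replicate 1, over 5 libraries of both groups, r was 0.99, 0.98 and 0.97. The difference between groups adds to these values too.

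Egr4 had a Pearson r of 0.61 with Egr1 (exact permutation p = 0.239), 0.54 with Egr2 (exact p = 0.261) and 0.62 with Nr4a1 (exact p = 0.217), each with an adjusted p of 0.261, and Spearman rho values of 0.37 (exact p = 0.497), 0.37 (exact p = 0.497) and 0.49 (exact p = 0.356), with adjusted p = 0.497 for each. Within groups, the deviations of Egr4 from the group means correlated with an r of -0.11 to Egr1, -0.25 to Egr2 and -0.07 to Nr4a1. Without SH replicate 1, over 5 libraries of both groups, r was 0.79 with Egr1, 0.69 with Egr2 and 0.81 with Nr4a1. In EE replicate 3, Egr4 was at its highest and Egr1, Egr2 and Nr4a1 were at their lowest of EE. With 6 libraries, intervals around such values are wide, and a difference between the correlations of Egr4 and those of the other genes was not tested.

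**Figure D3:**
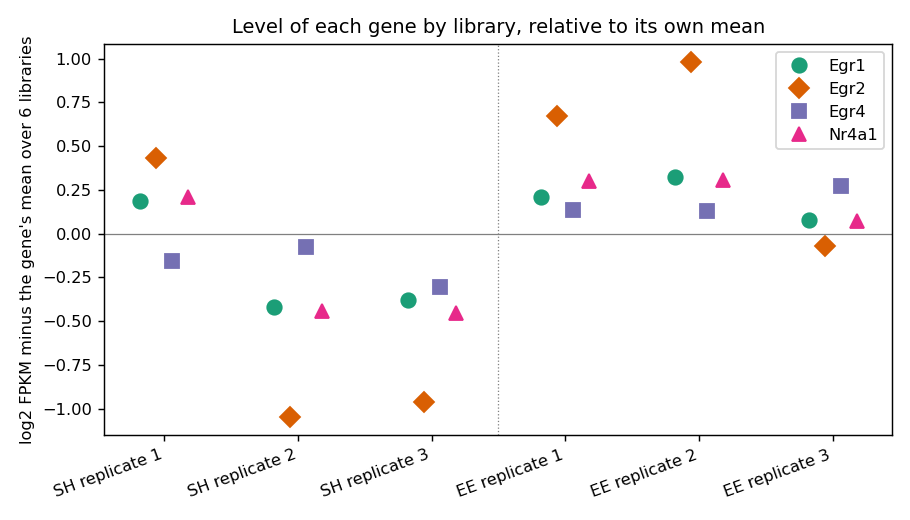
Log2 FPKM of Egr1, Egr2, Egr4 and Nr4a1 in each library minus the mean of the gene over the 6 libraries. Egr1, Egr2 and Nr4a1 are all above their mean in SH replicate 1 and lower in EE replicate 3 than in EE replicates 1 and 2, and Egr4 is below its mean in every SH library and above it in every EE library.

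The counts of Egr1 and Nr4a1 kept nearly the same proportion in every library, a comparison chosen after the values were seen. The ratio of Egr1 to Nr4a1 reads was 3.27, 3.37 and 3.49 in SH replicates 1, 2 and 3, and 3.12, 3.37 and 3.34 in EE replicates 1, 2 and 3. Its coefficient of variation over the 6 libraries was 3.75%, where counting error alone gives 2.83%, although both genes changed up to 1.68-fold (Egr1) and 1.69-fold (Nr4a1) between libraries. This ratio needs no library total. It had a mean of 3.38 ± 0.113 for SH and 3.28 ± 0.137 for EE (SD, n = 3 each), a log2 difference of -0.04 (exact permutation p = 0.4, adjusted p = 0.6 over 6 pairs). The ratio of Egr1 to Egr4 reads ran from 12.1 to 19.5, with a coefficient of variation of 17.6%, and was highest in SH replicate 1. The ratio of Egr1 to Egr2 reads ran from 21.6 to 52.5, with a coefficient of variation of 37.0%, and was lower in the libraries with more Egr1, since Egr2 changed 4.08-fold between its lowest and highest library.

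**Figure D4:**
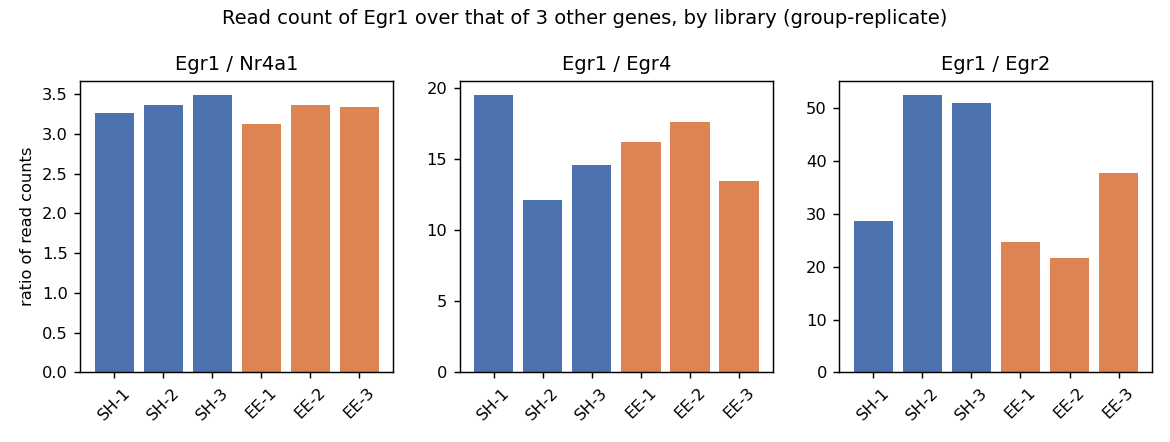
Read count of Egr1 divided by that of Nr4a1, Egr4 and Egr2 in each library, with SH in blue and EE in orange and axes starting at 0. The ratio to Nr4a1 stays between 3.12 and 3.49, while that to Egr4 runs from 12.1 to 19.5 and that to Egr2 from 21.6 to 52.5.

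The genes of the table with the levels most like each member were taken by Pearson r of log2(FPKM + 0.1) over the 6 libraries. For Egr1 they were Nr4a1 (r = 0.992), Egr2 (0.978), ATP6 (0.964), Arl5b (0.962) and Tmtc3 (0.9595). For Nr4a1 they were Egr1, Arl5b (0.980), Egr2, Tiparp (0.970) and Tmtc3 (0.961). For Egr2 they were Egr1, Nr4a1, Nr4a3 (0.965), Tmtc3 (0.964) and COX2 (0.955). By this measure, to which the difference between groups adds, Egr1, Egr2 and Nr4a1 were in the first 3 places of one another's lists. Egr4 ranked 144, 167 and 132 for Egr1, Egr2 and Nr4a1. For Egr4 the nearest genes were Man1a (0.995), Gm34583 (0.980), Hdx (0.974), Ppm1e (0.970) and Rapgef5 (0.969). By deviations from the group means, the nearest genes were Nr4a1, Gabrb1, Tnnt1, C77080 and Egr2 to Egr1, with r from 0.960 to 0.985, and Tmtc3, Egr1, Nr4a1, Hspa1b and Larp4 to Egr2, with r from 0.946 to 0.996. To Nr4a1 they were Gabrb1, Egr1, C77080, Arl5b and Tnnt1, with r from 0.976 to 0.991, and to Egr4 Man1a, Nfe2l1, D17Wsu92e, Exd2 and Pacsin1, with r from 0.939 to 0.995. On deviations Egr2 thus ranked 5 for Egr1, and it ranked 7 for Nr4a1. Tnnt1 and C77080 were lower in EE, with log2 fold changes of -0.80 and -0.45. All these values share the same libraries and the same totals, and they describe the 6 libraries.

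Of the other members of both families, Nr4a3 was in the table, and Egr3 and Nr4a2 were not analysed here. Nr4a3, an NR4A receptor like Nr4a1, measured 14.7, 12.4 and 13.3 FPKM in SH replicates 1, 2 and 3, against 15.8, 15.8 and 14.4 FPKM in EE replicates 1, 2 and 3. SH replicate 1 was above EE replicate 3 here too, at 1.14 times the mean of the other SH libraries, and the deviations of Nr4a3 had an r of 0.91 to Egr1, 0.94 to Egr2, 0.90 to Nr4a1 and -0.49 to Egr4. Its log2 fold change was 0.18 (SE 0.07, unadjusted p = 0.0206 from edgeR), rank 160 of the 246 genes that were higher in EE. With the column sums as library sizes it was 0.12 (unadjusted p = 0.0806 in edgeR). It passed under TMM (unadjusted p = 0.00633 in edgeR) and under DESeq2's size factors (unadjusted p = 0.000717 in DESeq2).

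Of 23 other transcription factors known to be induced by activity, 6 were in the table, 2 rose, 2 fell and 2 did not pass, with a median log2 fold change of 0.18, where the median of all genes was -0.18 and 19.2% of them were called higher and 40.6% lower. Under TMM 3 rose and 0 fell, under DESeq2's size factors 4 rose and 0 fell, and with the column sums 1 rose and 2 fell. Of all table genes, 39.2% were called higher and 9.08% lower under TMM, 39.9% and 4.97% under DESeq2's size factors, and 4.28% and 54.6% with the column sums. Atf3, a stress and activity induced bZIP factor, rose by 0.93 (SE 0.22, unadjusted p = 0.00160 in edgeR) on the log2 scale from 24 to 36 reads in SH to 54 to 73 reads in EE, with SH replicate 1 at 1.02 times the other SH libraries. Bhlhe40, a repressor of the clock, rose by 0.18 (SE 0.05, unadjusted p = 0.00625 in edgeR). The AP-1 subunits Jun and Jund fell, by log2 fold changes of -0.18 (SE 0.05, unadjusted p = 0.00394 in edgeR) and -0.22 (SE 0.06, unadjusted p = 0.00498 in edgeR). Both were above 0.01 under TMM (unadjusted p = 0.0338 for Jun and unadjusted p = 0.0295 for Jund in edgeR) with the same sign. Their deviations ran against those of Egr1, with an r of -0.85 for Jun and -0.71 for Jund. Klf10 had a log2 fold change of 0.28 (unadjusted p = 0.0327 in edgeR). Bhlhe40 was also above 0.01 with the column sums as library sizes (unadjusted p = 0.0945 in edgeR).

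Of 32 signalling and effector genes induced by activity, 15 were in the table, and 9 rose, 1 fell and 5 did not pass, with a median log2 fold change of 0.29, where 19.2% of all table genes and 45.5% of those with a log2 fold change above 0 were called higher. This split depends on the scaling, with 14 higher, 0 lower and 1 not passed under TMM and also under DESeq2's size factors, and 6 higher, 1 lower and 8 not passed with the column sums as library sizes. It moved with the whole table, of which 39.2% was called higher under TMM, 39.9% under DESeq2's size factors and 4.28% with the column sums. Dusp5 and Dusp6, phosphatases that switch off ERK, rose by 0.43 (SE 0.10) and 0.32 (SE 0.08) on the log2 scale. Nptx2, a synaptic pentraxin that gathers AMPA receptors, rose by 0.41 (SE 0.09), Ptgs2, the inducible cyclooxygenase, by 0.35 (SE 0.07), and Bdnf, the neurotrophin, by 0.25 (SE 0.05). The activin antagonist Fst rose by 0.64 (SE 0.17), the clock gene Per2 by 0.31 (SE 0.06), the EGFR inhibitor Errfi1 by 0.21 (SE 0.05) and Tiparp, a mono-ADP-ribosyltransferase, by 0.33 (SE 0.10). Nptx1, another neuronal pentraxin, fell by 0.21 on the log2 scale (SE 0.07), a call that was lost under TMM (unadjusted p = 0.0468 in edgeR) and under DESeq2's size factors (unadjusted p = 0.0480 in DESeq2). Bdnf (unadjusted p = 0.0101), Errfi1 (unadjusted p = 0.0320) and Tiparp (unadjusted p = 0.0168) lost theirs in edgeR with the column sums. Rheb, Sgk1, Scg2, Rasgrp1 and Arl5b had log2 fold changes of 0.16 to 0.29 and did not pass, but all 5 passed under TMM and under DESeq2's size factors. In 11 of the 15 genes every EE library lay above every SH library, where 37.2% of all table genes and 88.2% of those with a log2 fold change above 0 did so.

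The deviation of SH replicate 1 was shared by some of these genes and not by others. Against the other SH libraries it was 1.26 for Tiparp, 1.23 for Klf10, 1.21 for Arl5b, 1.16 for Dusp5 and 1.16 for Dusp6, all between the median of the table and the values of Egr1 and Nr4a1. It was 1.01 for Bdnf, 1.003 for Ptgs2 and 0.882 for Nptx2. Of these 8 genes Tiparp overlapped between groups, and the other 7, with and without a high SH replicate 1, had every EE library above every SH library, a share close to the 88.2% of all table genes with a log2 fold change above 0. The deviations of Arl5b, Dusp6 and Tiparp had an r of 0.94, 0.90 and 0.89 to Egr1, and those of Dusp5 and Klf10 0.67 each. Those of Bdnf, Ptgs2 and Nptx2 had an r of 0.37, 0.10 and -0.43.

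**Figure D5:**
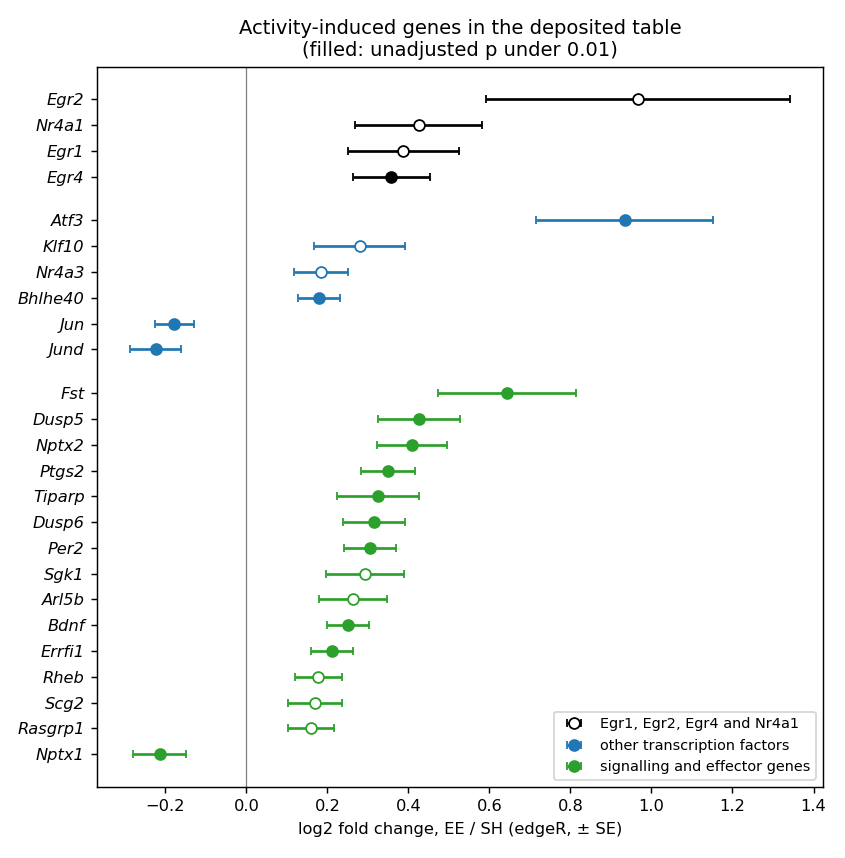
Log2 fold change of EE against SH with its SE from edgeR for Egr1, Egr2, Egr4 and Nr4a1 (black), 6 other activity-induced transcription factors (blue) and 15 signalling and effector genes (green), where filled points have an unadjusted p under 0.01. Of these 25 genes, Jun, Jund and Nptx1 lie below 0, and Egr2 and Atf3 lie highest.

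Of 14 genes upstream of the 4 members or in feedback on them, 3 were in the table, and 1 rose and 2 fell, beside the 19.2% of all table genes called higher and 40.6% called lower. Sos1, an activator of Ras, rose by 0.17 (SE 0.05) on the log2 scale, a call that was lost with the column sums as library sizes (0.11, unadjusted p = 0.0915 in edgeR). Rxra and Rxrb, retinoid X receptors that pair with Nr4a1, fell, by log2 fold changes of -0.29 (SE 0.07) and -0.28 (SE 0.08). Both were above 0.01 with DESeq2's size factors (unadjusted p = 0.0223 for Rxra and unadjusted p = 0.0335 for Rxrb in DESeq2), and Rxrb also under TMM (unadjusted p = 0.0187 in edgeR). Of 15 clock genes 4 were in the table, and Per2, Dbp, Ciart and Bhlhe40 all rose, with a median log2 fold change of 0.39, where 19.2% of all table genes and 45.5% of those with a log2 fold change above 0 were called higher. With the column sums 3 of these 4 rose, without Bhlhe40, where 4.28% of all table genes were called higher. Dbp had 0.984 times and Ciart 1.11 times the FPKM of the other SH libraries in SH replicate 1. Egr1 and Nr4a1 levels in brain are known to change over the day, and the part of the hour of dissection was not tested.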

How the data were processed

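Hippocampal RNA of 3 SH and 3 EE libraries was analysed, grouped by the sample labels. Whether a library came from a single mouse or a pool was not given in the sources used here. The authors mapped reads to mm10 with Hisat2, used FeatureCounts for the reads of each gene, and deposited raw counts and FPKM for their DEGs. A p-value and a log2 fold change from the authors' own edgeR comparison are also in the deposited table and were not used. The members and gene lists were chosen with earlier results of these data known.

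Library totals were computed from count, FPKM and RefSeq exon length for GRCm38, where 193 genes shared a total within 0.01%. The counts of all 584 genes were tested with edgeR 4.0.16 (quasi-likelihood, R 4.3.3, two-sided), with the totals as library sizes and without a low-count filter or further scaling. SE was taken as the log2 fold change over the root of the F statistic. Correlations and exact permutation tests used log2(FPKM + 0.1). Counting error came from the reads of each gene in a library, and totals of 31969156 to 53943195 reads scaled it to FPKM. The code was tested on simulated data. Replicates of a group differed beyond sampling noise in every pair. The alternatives were other scalings, DESeq2 1.42.0, limma 3.58.1, edgeR's likelihood ratio and robust fits, a filter, a replicate block and each library left out. The correlation without SH replicate 1 and the count ratios were added after seeing the data. Named genes were the members, genes of their families, the 5 most alike genes by each measure and genes of the lists.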

Additional observations from a re-analysis of the deposited data

How the results depend on the processing

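The table holds only genes selected for a difference, and 3 libraries a group allow no exact p under 0.1 between groups. The labels do not say whether replicates differ in day or batch. The p-values of edgeR set the difference between groups against the spread between these libraries. That spread is drawn toward a trend fitted over the selected genes. No member changed sign in its log2 fold change under any alternative.

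With the column sums as library sizes, Egr4 had a log2 fold change of 0.30 (unadjusted p = 0.0166 in edgeR) and 0 of the 4 genes were called, while 25 table genes were higher and 319 lower. The likelihood ratio test of edgeR called 3 of the 4, with Egr1 at 0.39 and Nr4a1 at 0.42, where 160 table genes were higher and 304 lower. With limma on log2(FPKM + 1), Egr2 was 0.30. TMM factors gave 229 table genes higher and 53 lower, and DESeq2's size factors 233 and 29. With a robust fit of edgeR, the unadjusted p was 0.12 for Egr1, 0.144 for Egr2 and 0.11 for Nr4a1. A mean FPKM of at least 1 removed Egr2, so no value was had there. At p under 0.05 all 4 genes passed, as did 583 of the 584 table genes, and at p under 0.001, 0 of 4, where 31 table genes passed.

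When single libraries were left out, the log2 fold change ran from 0.28 to 0.61 for Egr1, 0.72 to 1.58 for Egr2, 0.30 to 0.41 for Egr4 and 0.31 to 0.67 for Nr4a1. From 0 to 4 of the 4 genes were called, and 52 to 98 table genes were higher and 77 to 228 lower.

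SH and EE libraries share replicate numbers only by name. Their deviations correlated with r of 0.15, -0.044 and -0.0979 for numbers 1, 2 and 3, and not every library correlated best with its own number. With the replicate block all 4 genes were called in edgeR, with log2 fold changes of 0.41 (Egr1), 1.01 (Egr2), 0.36 (Egr4) and 0.45 (Nr4a1), and 78 table genes were higher and 136 lower.

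The correlation of Egr4 with Egr1 was -0.23 without the pair of libraries farthest from the median and -0.11 on deviations from the group means. With Egr2 it was -0.23 and -0.25, and with Nr4a1 it was 0.48 and -0.067. Without SH replicate 1, added after seeing the data, these values were 0.79, 0.69 and 0.81.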

Other observations

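Marker genes of other cell types are given as values, since a whole hippocampus holds many cell types. Of 8 endothelial markers 5 were in the table, 2 with a higher and 3 with a lower mean in EE and 2 of them called as lower, where 40.6% of all table genes were, with a summed FPKM of 25.9 to 29.1 in SH and 23.0 to 24.5 in EE. Of 6 markers of microglia and other immune cells 2 were in the table, and P2ry12 rose and Cd74 fell, where 19.2% of all table genes were called higher and 40.6% lower. Their summed FPKM was 20.6 to 23.7 in SH and 24.8 to 26.1 in EE. Of 7 interneuron markers 2 were in the table, of which Lamp5 fell and Cort was not called (summed FPKM 21.7 to 23.9 in SH and 22.8 to 23.2 in EE). Of 5 markers of immature neurons Dcx was in the table and rose, where 19.2% of all table genes and 45.5% of those with a log2 fold change above 0 were called higher. Of the 2 hippocampal neuron markers in the table, Neurod6 rose and C1ql2 had a lower mean in EE. C1ql2 had a log2 fold change of -0.29 (unadjusted p = 0.0319 from edgeR) and was not called. Together they had a summed FPKM of 159.9 to 167.9 in SH and 173.7 to 179.1 in EE. Most of this sum was Neurod6, with an SH mean of 138.1 FPKM against 26.1 FPKM for C1ql2. Of 5 blood markers Hba-a1 was in the table, with 57.6 to 78.1 FPKM in SH and 75.4 to 95.1 FPKM in EE, and it was not called. Of 6 oligodendrocyte and 4 choroid plexus markers 0 were in the table, and they were not analysed here. SH replicate 1, which was high in Egr1, Egr2 and Nr4a1, had the lowest summed astrocyte markers of SH and the highest summed endothelial markers, but single markers differed. Against the other SH libraries, Aldh1l1 was 1.12 there and the other 4 astrocyte markers 0.947 to 0.970, and Slco1a4 (1.26), Cd34 (1.17) and Ptprb were above 1 while Cldn5 and Mcam were 0.972 and 0.982. Calls among these markers depend on the scaling. Dcx, Neurod6 and P2ry12 were not called with the column sums as library sizes, and Lamp5, Cd74 and Mcam were not called under TMM, where Cort, Slco1a4, Ptprb and Hba-a1 were called as higher. Of all table genes, 4.28% were called higher with the column sums, and 39.2% were called higher and 9.08% lower under TMM. The part of these cell types in the values of Egr1, Egr2, Egr4 and Nr4a1 was not tested.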
